A study of Homo sapiens with 6 samples.

Results

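The ephrin, semaphorin and plexin guidance genes are a set of 42 genes for signals that steer cells and axons, read by 72 of the 41000 probes on the array, which carry 29123 gene names. They comprise 11 Eph receptors, 8 ephrins, 11 semaphorins, 7 plexins and a group of 5 genes for Slit, Robo, netrin and UNC5 proteins. A gene was included when its symbol, as the array files give it, was on this list. A single probe read 18 of the genes, 2 probes read 19, 3 probes read 4 and 4 probes read 1. The probe that was brightest over the 6 arrays stood for a gene, and further probes of the genes described below are given where they read otherwise.

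Ephrins are ligands anchored in the membrane of one cell, and the Eph receptors that bind them are tyrosine kinases on its neighbour, so the signal passes where cells touch and usually drives them apart. Secreted and membrane-bound semaphorins act through plexins, often with a neuropilin as partner, and change the cytoskeleton and adhesion. Slit proteins signal through Robo receptors, and netrins through DCC, neogenin and UNC5 receptors. In epithelial cancers these families are studied for their part in invasion, in vessel growth and in the sorting of cells at tissue boundaries.

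Both cell lines are established human ovarian cancer lines, SKOV3 and A2780s. The SKOV3 clones sh-S1 and sh-S2 carried lentiviral pLKO.1-puro vectors with hairpins against the gene of Hic-5, a focal adhesion scaffold protein, and were set against a single mock-transfected SKOV3 Ctrl clone. The A2780s clone pCMV-Hic-5 carried a pCMV6 vector with the tagged cDNA of Hic-5, and its Ctrl clone carried the control vector. Each group was 1 clone, so the effect of the vector and the difference between single cell clones cannot be told apart. Each array compared a clone with its Ctrl, one in the dye Cy5 and the other in Cy3, with 2 arrays per clone and the dyes exchanged. The 2 arrays of a clone read the same pair of RNAs and counted as 1 replicate, which left n = 2 clones in SKOV3 and 1 in A2780s. The question was how the level of Hic-5 changes gene expression in cells of mesenchymal and of epithelial shape, and here the guidance genes were read in both.

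The gene that encodes Hic-5, TGFB1I1, was read first as a check of the labels. In SKOV3 its log2 ratio of clone to Ctrl was -0.16 and 0.12 on the sh-S1 arrays and -0.12 and 0.28 on the sh-S2 arrays, with a mean of 0.03 ± 0.07 (SD, n = 2 clones) and a limma adjusted p of 0.856. The transcript was thus not measured as lower in either clone labelled as carrying a hairpin, and the names sh-S1 and sh-S2 are used below as labels only. In A2780s its log2 ratio was 4.05 and 2.60, a mean of 3.33 or 10.0-fold higher in the pCMV-Hic-5 clone. The log2 level of TGFB1I1 was 4.56 higher in the RNA labelled A2780s Ctrl than in that labelled SKOV3 Ctrl. The names of the lines are likewise used as the labels give them, also where the Ctrl RNAs are compared.

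The 4 SKOV3 arrays lay on 1 slide scanned once and the A2780s arrays on another, so line and slide cannot be told apart. The Cy5 channel of the SKOV3 arrays was dim, with a median signal of 9.52 to 25.5 against 373 to 530 in Cy3, while the A2780s arrays read 325 to 568 in either dye. On the SKOV3 arrays 43.7% to 63.6% of probes were well above background in Cy5 and 88.8% to 94.5% in Cy3. Over 30760 probes, the levels of the SKOV3 clones correlated with SKOV3 Ctrl at r = 0.920 and with A2780s Ctrl at r = 0.951 in Cy3, and at 0.967 and 0.927 in Cy5; the probes share arrays and base composition, and these values are descriptive. Of 8 tested markers of ovarian carcinoma epithelium, 6 were called lower in the labelled sh clones, where 4.53% of all genes were. The rule for a call is given below. Among the 6 were KRT18 with a log2 ratio of -3.53 and PAX8 with -3.58, and the median of the 8 was -2.24. CDH1, which encodes the epithelial cadherin, was well above background on 2 of 4 channels of SKOV3 Ctrl and on 0 of 2 of A2780s Ctrl. Only 1 fibroblast, 1 endothelial and 4 leukocyte markers were tested in SKOV3. None of them was called, where 7.96% of all genes were, so few genes say little about other cell types. The part of these differences in the results that follow was not tested.

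In SKOV3 the guidance genes were led by 7 that passed both tests for a call, a limma adjusted p no higher than 0.05 and a change of 2-fold, in the labelled sh clones. SEMA3D, ROBO1 and UNC5B were higher, and EFNA1, EFNB2, SEMA3C and NTN4 were lower. They were ligand genes of the ephrins, semaphorins and netrins and receptor genes of the Slit and netrin systems, and no Eph receptor or plexin was among them. These were 3 genes higher and 4 lower of 28 tested, where 3.43% and 4.53% of all 18750 genes tested were called higher and lower, 7.96% in all. With the adjusted p alone 15 of the 28 passed, against 32.9% of all genes. Their median log2 ratio was -0.11 against 0.01 over all genes, and the median size of the log2 ratio without its sign was 0.47 against 0.18. The genes were chosen with earlier results of these data known. Here and below, their shares beside those of all genes are therefore descriptive only. In 17 of the 28 the sign was the same on all 4 arrays, and the share over all genes was not counted. The other 14 genes were not far enough above background in SKOV3 to be tested. In bulk RNA from a clone, fewer cells that express a gene and less RNA per cell cannot be told apart.

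**Figure D1:**
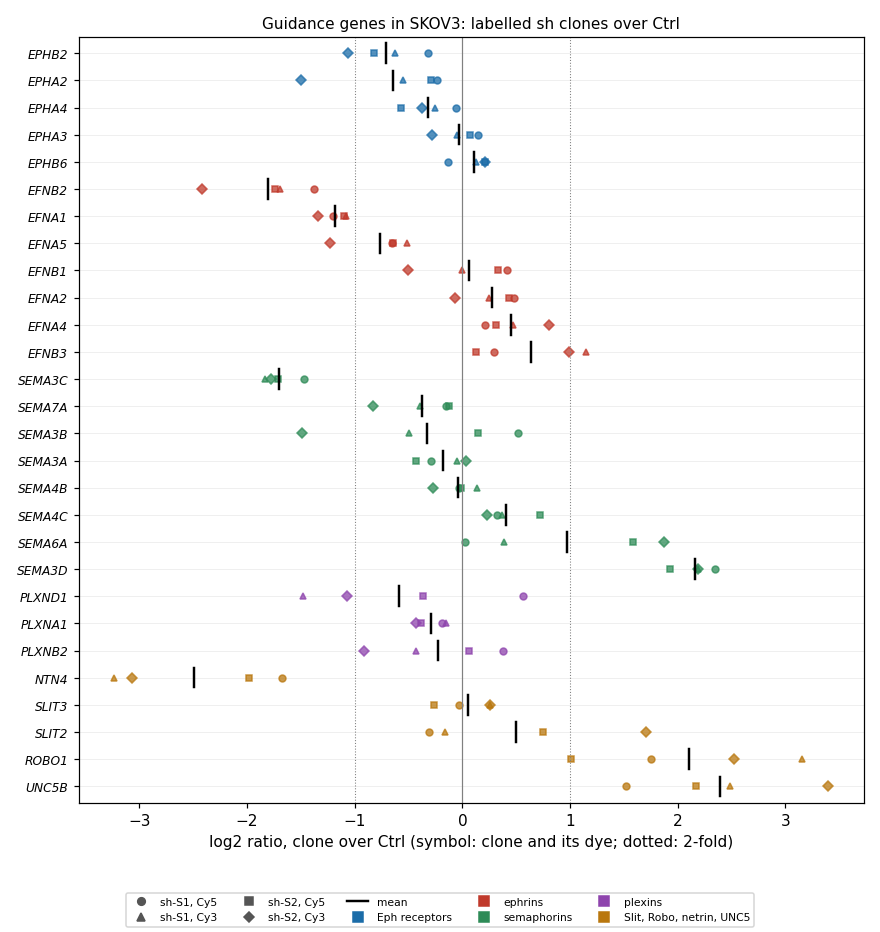
The log2 ratio of clone to Ctrl is drawn on the x axis for the 28 guidance genes tested in SKOV3, 1 symbol per array, coloured by family, with the mean as a black bar and dotted lines at 2-fold. EFNB2, EFNA1, SEMA3C and NTN4 lie wholly left of 0 and SEMA3D, ROBO1 and UNC5B wholly right of it, while the sh-S1 and sh-S2 symbols of SEMA6A and SLIT2 lie apart.

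The sequence just before the start of transcription is shown for 4 of the 7 called genes, so that the letters near genes that moved in opposite directions can be compared. Each is the 250 bases before a RefSeq start in GRCh38.p14, 5′ to 3′ on the strand of the gene. Capitals mark CCAAT, the CCAAT box, and CAGGTG, the E-box that Snail and ZEB factors bind, each in either orientation (ATTGG and CACCTG). EFNA1 lies at chr1:155127626-155127875 on the plus strand, EFNB2 at chr13:106535663-106535912 on the minus strand, SEMA3D at chr7:85187057-85187306 on the minus strand and ROBO1 at chr3:79019460-79019709 on the minus strand. The last is 1 of 2 listed ROBO1 starts, and the arrays do not show which was used.
EFNA1: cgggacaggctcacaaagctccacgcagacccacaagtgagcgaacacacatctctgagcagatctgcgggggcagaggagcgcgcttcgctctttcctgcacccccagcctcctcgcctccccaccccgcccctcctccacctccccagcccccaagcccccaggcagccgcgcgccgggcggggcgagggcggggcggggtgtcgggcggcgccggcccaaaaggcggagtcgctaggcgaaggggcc
EFNB2: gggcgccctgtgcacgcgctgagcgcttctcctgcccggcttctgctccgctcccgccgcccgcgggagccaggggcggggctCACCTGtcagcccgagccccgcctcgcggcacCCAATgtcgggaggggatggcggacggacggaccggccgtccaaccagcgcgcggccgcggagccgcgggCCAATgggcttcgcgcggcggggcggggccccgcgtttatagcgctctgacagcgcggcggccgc
SEMA3D: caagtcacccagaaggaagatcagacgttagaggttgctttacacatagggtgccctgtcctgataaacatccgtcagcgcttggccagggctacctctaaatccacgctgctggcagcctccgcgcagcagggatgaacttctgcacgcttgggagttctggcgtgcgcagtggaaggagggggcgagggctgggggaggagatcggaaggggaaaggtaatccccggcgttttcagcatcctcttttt
ROBO1: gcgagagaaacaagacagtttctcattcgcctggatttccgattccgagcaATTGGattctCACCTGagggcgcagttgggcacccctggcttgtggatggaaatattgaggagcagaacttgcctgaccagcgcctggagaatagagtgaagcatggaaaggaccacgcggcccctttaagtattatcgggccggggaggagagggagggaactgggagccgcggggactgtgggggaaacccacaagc

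Of genes lower in SKOV3, the EFNA1 and EFNB2 windows held 73.2% and 78.4% G and C with 24 and 40 CpG pairs, the NTN4 windows 78.4% and 64.4%, and the SEMA3C windows 77.6% and 36.4%, the last with 2 CpG pairs. Of genes higher there, the SEMA3D window held 57.6% and the ROBO1 windows 56.8% and 48.0%. The base composition of the directions overlapped only through the SEMA3C window with 36.4%. Few genes are compared, and the arrays do not show which start was used. EFNB2 and ROBO1 each held CAGGTG once, 1 gene lower and 1 higher, and EFNA1 and SEMA3D held neither motif in this window. Of the 42 genes 38 had a listed start, with 58 windows in all; EFNB3, SEMA3A, SEMA6A and UNC5B had none. CAGGTG was in 8 of the 58 windows (13.8%) against 17.5% of all 35116 listed windows of this length. CCAAT was in 17 (29.3%) against 32.0%. The AP-1 letters TGANTCA, which read the same on both strands, were in 1 (1.72%) against 6.57%. The median window held 67.0% G and C in the set and 58.0% over all listed windows, and the motif shares were not adjusted for this. Windows of 1 gene overlap in part, and a match is a description of the letters only.

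Among the ephrins, 2 ligand genes were lower in the labelled sh clones. EFNB2 encodes ephrin-B2, a transmembrane ligand of EphB4 known from arteries, and its log2 ratio was -1.38 and -1.69 with sh-S1 and -1.74 and -2.42 with sh-S2. All 4 arrays were below -1, with a mean of -1.81 ± 0.39 (SD, n = 2 clones), 3.50-fold lower, and a limma adjusted p of 0.000153. Its probe lies at chr13:107142736-107142795 (hg19, minus strand). A further EFNB2 probe, at chr13:107143629-107143688, was too dim to be tested and read -0.14.

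EFNA1 encodes ephrin-A1, a lipid-anchored ligand of EphA2. Its log2 ratio was -1.20 and -1.09 with sh-S1 and -1.10 and -1.34 with sh-S2, so the arrays and the clones lay close together. The mean was -1.18 ± 0.06 (SD, n = 2 clones), 2.27-fold lower, with a limma adjusted p of 0.000169. Its other probe read -0.74 with an adjusted p of 0.00707, and the mean over both, -0.96, fell short of 2-fold.

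The other ephrin genes moved less. EFNA5 had a log2 ratio of -0.65, -0.52, -0.65 and -1.23 on the 4 arrays, a mean of -0.76 with a limma adjusted p of 0.00291, below the fold required. EFNB3, with 0.64, and EFNA4, with 0.45, passed the adjusted p in the other direction, also below 2-fold. A further EFNB3 probe read -0.20, the opposite sign, with an adjusted p of 0.158, and a further EFNA5 probe, not tested, read 0.00. EFNA2 at 0.27 and EFNB1 at 0.06 did not pass, and EFNA3 was not tested. Over the 7 tested ephrin genes the median log2 ratio was 0.06, with 2 lower and 0 higher.

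No Eph receptor gene was called in SKOV3 by its brightest probe. EPHB2, a receptor for B-type ephrins, read -0.32 and -0.63 with sh-S1 and -0.82 and -1.06 with sh-S2. It was below 0 on all 4 arrays, and its mean of -0.71 ± 0.33 (SD, n = 2 clones) had a limma adjusted p of 0.00657 but was under 2-fold. EPHA2, the main receptor of ephrin-A1 in epithelium, read -0.24, -0.55, -0.29 and -1.50, a mean of -0.65 with an adjusted p of 0.0107. EPHA4, a receptor that binds both ephrin classes, differed between its probes. Its brightest read -0.32 with an adjusted p of 0.0735, another read -0.45, and the third read -1.14, -1.43, -1.09 and -2.10, a mean of -1.44 that was called at an adjusted p of 0.000147, where 7.14% of all probes were called. The brightest lies at chr2:222284082-222284141, overlapped by the second, and the called one at chr2:222290717-222290776 (hg19, minus strand). EPHA3 at -0.03 and EPHB6 at 0.10 did not pass. EPHA1, EPHA5, EPHA7, EPHB1, EPHB3 and EPHB4 were not tested in SKOV3.

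The semaphorin genes split. SEMA3D and SEMA3C encode secreted class 3 semaphorins, and they moved in opposite directions. SEMA3D had a log2 ratio of 2.34 and 2.19 with sh-S1 and 1.93 and 2.19 with sh-S2, all 4 arrays above 1.9. Its mean was 2.16 ± 0.15 (SD, n = 2 clones), 4.47-fold higher, with a limma adjusted p of 1.72e-05. Of its other probes, one read 0.49 with an adjusted p of 0.00924 and one, not tested, read 0.21, so the probes shared the direction and not the size. SEMA3C had -1.47 and -1.83 with sh-S1 and -1.72 and -1.78 with sh-S2. Its mean was -1.70 ± 0.07 (SD, n = 2 clones), 3.25-fold lower, with an adjusted p of 3.66e-05, and it was read by 1 probe.

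SEMA6A, a transmembrane semaphorin that binds A-type plexins, set the labelled sh clones apart. Its log2 ratio was 0.02 and 0.39 with sh-S1 and 1.59 and 1.87 with sh-S2, so the arrays of the clones did not overlap. The mean of 0.97 ± 1.08 (SD, n = 2 clones) had a limma adjusted p of 0.0548. The log2 ratio of sh-S2 minus sh-S1 was 1.57 with the clones in Cy5 and 1.49 in Cy3. SEMA6A and SLIT2 were the 2 genes of the set that differed at least 2-fold between the clones, both higher in sh-S2, where 0.475% of all genes did; with 1 RNA per clone there is no test of this difference. Of the 4 SEMA6A probes 1 carried this difference. The others read sh-S2 minus sh-S1 at 0.35 for the one tested and at 0.17 and -0.03 for those not tested. Their means over the clones were 0.29, 0.05 and -0.01. The probe that carried the difference is listed at chr5:115779232-115779258 (hg19, minus strand), a span of 27 bases for a probe of 60, so its full placement is not given. It also stands for SEMA6A in A2780s and between the Ctrl RNAs.

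The remaining semaphorin genes stayed under 2-fold. SEMA7A, a lipid-anchored semaphorin, read -0.15, -0.40, -0.12 and -0.83, a mean of -0.38 with an adjusted p of 0.0297. SEMA4C read a mean of 0.41 with an adjusted p of 0.0181, while its other probe read -0.06 with an adjusted p of 0.721. SEMA3B turned with the dye, at 0.52 and 0.14 with the clone in Cy5 and at -0.50 and -1.49 with it in Cy3, so its mean of -0.33 has no stable sign. SEMA3A at -0.18 and SEMA4B at -0.04 did not pass, and SEMA3E, SEMA3F and SEMA4D were not tested.

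Plexins are the receptors of the semaphorins, and none of the 3 tested in SKOV3 was called. PLXND1 had 0.56 and -1.48 with sh-S1 and -0.37 and -1.08 with sh-S2. The 2 arrays of sh-S1 thus pointed opposite ways, and the limma adjusted p of 0.00595 for the mean of -0.59 rests on clone means that do not hold that spread. PLXNA1 read -0.29 and PLXNB2 read -0.23, and neither passed the adjusted p. PLXNA2, PLXNA3, PLXNB1 and PLXNC1 were not tested in SKOV3.

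The largest log2 ratios of the set, in either direction, were in the Slit, Robo, netrin and UNC5 genes. UNC5B encodes a netrin receptor that is known to repel endothelial tips, and it read 1.52 and 2.48 with sh-S1 and 2.17 and 3.39 with sh-S2. Its mean was 2.39 ± 0.55 (SD, n = 2 clones), 5.24-fold higher, with a limma adjusted p of 0.000125. SKOV3 Ctrl was well above background for it on 3 of 4 channels. ROBO1, a receptor of Slit proteins, read 1.75 and 3.15 with sh-S1 and 1.01 and 2.52 with sh-S2. In either clone the ratio was larger with the clone in Cy3, the brighter dye, and the mean was 2.11 ± 0.48 (SD, n = 2 clones), 4.31-fold higher, with an adjusted p of 0.000145. The probe behind this value lies at chr3:78646795-78646854 (hg19, minus strand), and the other, at chr3:78649391-78649450, read 0.40 with an adjusted p of 0.0266.

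NTN4, which encodes the secreted ligand netrin-4, went the other way. It read -1.67 and -3.23 with sh-S1 and -1.99 and -3.07 with sh-S2, again farther from 0 with the clone in Cy3. The mean was -2.49 ± 0.05 (SD, n = 2 clones), 5.62-fold lower, with a limma adjusted p of 7.47e-06. The clones were well above background on 2 of 4 channels. SLIT2, a secreted Slit ligand, read -0.31 and -0.16 with sh-S1 and 0.75 and 1.71 with sh-S2, opposite signs on every array of the clones. Its mean of 0.50 had an adjusted p of 0.27. SLIT3 read 0.05 by its brightest probe, which did not pass, while its other probe read -0.55 with an adjusted p of 0.00483.

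The only SLIT2 probe lies at chr4:20620432-20620491 (hg19, plus strand), within the coding sequence, and its 60 bases are shown because a single probe carries the difference between the clones.
SLIT2 probe: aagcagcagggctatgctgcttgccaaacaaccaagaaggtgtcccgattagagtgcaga

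**Figure D2:**
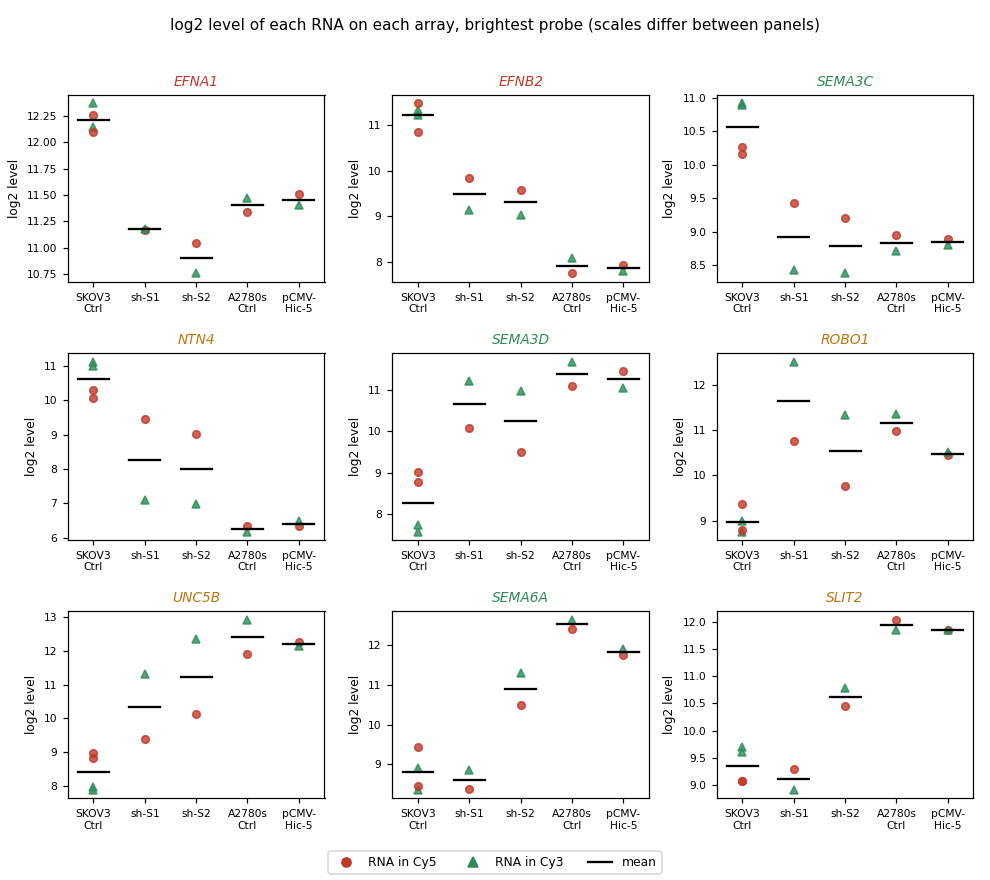
Each panel shows the log2 level of 1 gene (y axis, normalized within and between arrays) in the RNAs of SKOV3 Ctrl, sh-S1, sh-S2, A2780s Ctrl and pCMV-Hic-5 (x axis), with a red point for each array where the RNA was in Cy5, a green triangle for Cy3 and a black bar for the mean. For EFNB2 and NTN4 both A2780s RNAs lie below every SKOV3 RNA, for SEMA3C they lie beside the labelled sh clones, and for SEMA6A and SLIT2 sh-S2 lies above sh-S1.

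The levels of the guidance genes in the Ctrl clones of the lines lay up to 4.02 apart on the log2 scale among those measured in both. A2780s Ctrl was at least 2-fold higher for 8 of the 36 genes tested and at least 2-fold lower for 7, where 8.2% and 10.5% of all 22169 genes were higher and lower, 18.7% in all. The median difference of the log2 level was -0.11, against 0.03 over all genes. These comparisons were made between slides on 1 RNA per line and have no test.

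Higher in A2780s Ctrl than in SKOV3 Ctrl were UNC5B, by a log2 level of 4.02, SEMA6A by 3.75, SEMA3D by 3.10, SLIT2 by 2.58 and ROBO1 by 2.18, with EPHA7, EFNA4 at 1.43 and EPHB3 at 1.12. EPHA7 was well above background on 0 of 4 channels of SKOV3 Ctrl, and as a mean over the dyes A2780s Ctrl was at least 3.73-fold higher. The difference was 3.11 in Cy3 and 0.81 in Cy5, so this bound does not hold in Cy5 alone. The other EPHA7 probes, not tested, read 0.18 and -0.41. Further probes read less for SEMA3D, at 1.27 and 1.30, for SEMA6A, at 1.47 and 0.94 with 0.37 for one not tested, and for ROBO1, at 0.38.

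Lower in A2780s Ctrl were NTN4 and SEMA7A, with EFNB2 at a log2 level difference of -3.28, SEMA3C at -1.73, EPHB2 at -1.41, SEMA4B at -1.11 and PLXNB2 at -1.07. NTN4 and SEMA7A were well above background on 0 of 2 channels of A2780s Ctrl. The brightest EPHA4 probe read -0.82 and was not counted, while its others read -2.73 and -1.48, and the second SLIT3 probe read -1.04 where the brightest read 0.02. SKOV3 Ctrl was at least 17.5-fold higher for NTN4 and at least 2.46-fold higher for SEMA7A.

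This comparison and the ratios within SKOV3 share the SKOV3 Ctrl RNA. Without that RNA, the log2 level of the labelled sh clones minus that of A2780s Ctrl depended on the dye for some of the genes called in SKOV3. SEMA3C read -0.31 in Cy3 and 0.36 in Cy5, and ROBO1 0.55 and -0.71, so neither had a stable sign. EFNA1 read -0.51 and -0.23, SEMA3D -0.59 and -1.29 and UNC5B -1.10 and -2.16. EFNB2 read 1.00 and 1.95 and NTN4 0.86 and 2.91, both higher in the clones in either dye.

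**Figure D3:**
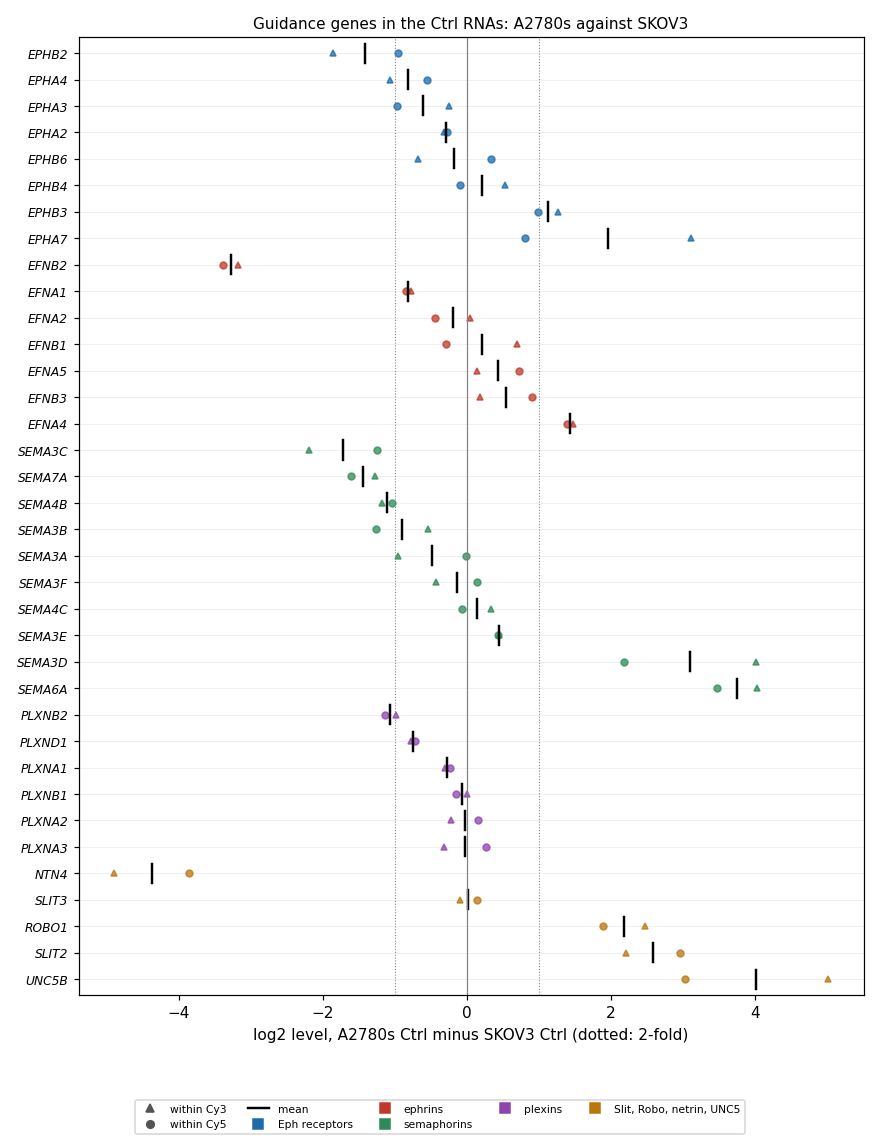
The log2 level of A2780s Ctrl minus that of SKOV3 Ctrl is drawn on the x axis for the 36 guidance genes tested, with a triangle within Cy3, a circle within Cy5, a black bar for the mean and dotted lines at 2-fold. UNC5B, SEMA6A and SEMA3D lie farthest right and NTN4 and EFNB2 farthest left, and the dyes lie far apart for EPHA7.

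In A2780s the set moved little with pCMV-Hic-5, and 4 genes reached the 1.5-fold used there with the same direction on both arrays. EPHB3 was higher, and EFNA5, SEMA6A and ROBO1 were lower. These were 1 higher and 3 lower of 34 tested, where 3.43% of all 21969 genes were higher and 1.42% were lower, 4.86% in all. The median log2 ratio was -0.04 against -0.01 over all genes, and without the sign it was 0.10 against 0.14. In 18 of the 34 both arrays had the same sign, which 2 arrays can also share by chance. The share over all genes was not counted. There is 1 replicate and no test.

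EPHB3, an Eph receptor known from the sorting of cells along the intestinal crypt, read 0.68 with the clone in Cy5 and 1.01 in Cy3, a mean of 0.84 or 1.79-fold higher. EFNA5, an A-type ephrin, read -0.93 and -0.62, a mean of -0.78 or 1.71-fold lower. SEMA6A read -0.89 and -0.50, a mean of -0.69. ROBO1 read -0.91 and -0.46, a mean of -0.69. For each of the 3 lower genes the ratio was farther from 0 when Cy5 marked the clone. Without that array only EFNA5 of the 3 kept 1.5-fold, with ROBO1 at -0.46 and SEMA6A at -0.50. None of the 3 was called as the mean over the probes of the gene, where EFNA5 read -0.39, ROBO1 -0.40 and SEMA6A -0.18.

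The ROBO1 ratio was thus above 0 in the labelled sh clones of SKOV3 and below 0 in the pCMV-Hic-5 clone of A2780s, each against its own Ctrl. EFNA5 was below 0 in both, with a mean of -0.76 in SKOV3 and -0.78 in A2780s. SEMA6A, lower in A2780s, read 0.97 in SKOV3 without a call, and EPHB3 was not tested in SKOV3. Of the other genes called in SKOV3, the A2780s log2 ratio was -0.04 for EFNB2, 0.05 for EFNA1, 0.02 for SEMA3C and -0.13 for SEMA3D. UNC5B read -0.67 and 0.22, opposite signs on its arrays, and NTN4 was not tested in A2780s. The tested genes that were not called lay between -0.54 for PLXNA1 and 0.50 for EPHA2. EPHA2 read 0.69 and 0.32, and PLXNA1 -0.54 and -0.55, so both had the same sign on either array.

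**Figure D4:**
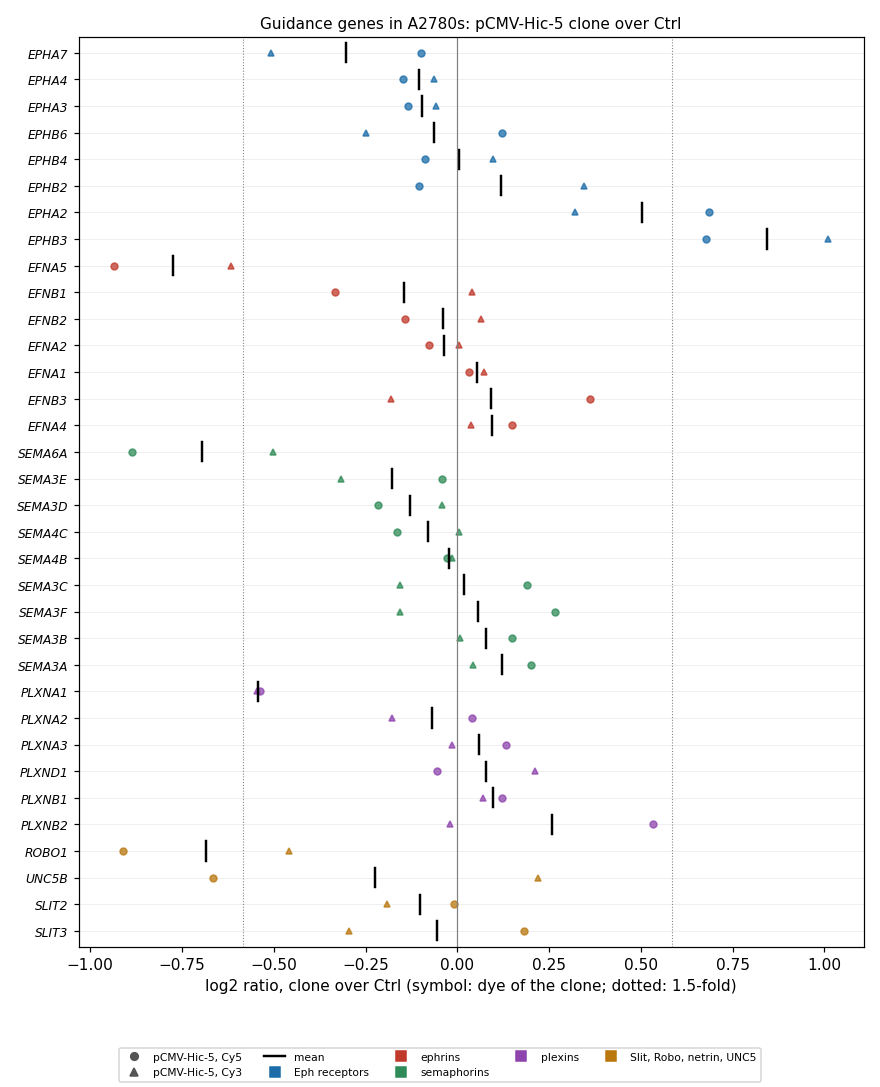
The log2 ratio of the pCMV-Hic-5 clone to Ctrl is drawn on the x axis for the 34 guidance genes tested in A2780s, with a circle where the clone was in Cy5, a triangle where it was in Cy3, a black bar for the mean and dotted lines at 1.5-fold. EPHB3 lies right of the dotted line in both dyes and EFNA5 left of it in both, while most other genes lie around 0.

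The rest of the guidance system was read from lists of 35 further ligands and receptors and 44 signal transducers on the array. Of 26 further ligands and receptors tested in SKOV3, 1 was higher and 1 lower, a share near the 7.96% called of all genes. The netrin receptor gene NEO1 (neogenin) had a log2 ratio of 1.49 with a limma adjusted p of 0.000499. The semaphorin co-receptor gene NRP1 (neuropilin-1) read -1.89, -3.33, -1.99 and -3.61, a mean of -2.71 ± 0.13 (SD, n = 2 clones) with an adjusted p of 6.92e-06. The list median was 0.04.

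Of 38 transducers tested, 0 were higher and 4 were lower, where 3.43% and 4.53% of all genes were, and the median was -0.17. DPYSL3, with a log2 ratio of -2.52, and DPYSL5, with -1.72, belong to the CRMP family that carries semaphorin signals to microtubules. MICAL2, a flavoprotein that oxidises actin, had -2.87. NGEF, an exchange factor that acts downstream of EphA receptors, had -1.07. In A2780s 1 of 41 transducers tested was higher, MICAL2 at a log2 ratio of 0.82 and 1.10. Of 28 ligands and receptors tested there, SEMA6D, at a mean of 0.72, was higher and UNC5C, at -0.77, lower, where 4.86% of all genes were called.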

How the data were processed

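Gene expression was measured on 6 two-colour Agilent Whole Human Genome arrays, and the members and gene lists used here were chosen with earlier results of these data known. The authors deposited spot intensity values in Cy3 and Cy5 as written by Agilent Feature Extraction (version 8.5.1.1 per the labels, 10.7.3.1 per the file headers), not normalized. The deposited log10 ratios (Cy5 over Cy3, direction not turned for swapped dyes) served as an alternative. Mean spot intensity and median local background were corrected with normexp (limma 3.58.1, R 4.3.3, offset 50), normalized by loess within arrays, and turned to log2 ratios of clone over Ctrl. On 1 A2780s array 40 spots with a local background over 1000 were left out. Levels per channel were also normalized between arrays with Aquantile.

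A probe was tested when every Ctrl channel of the line, or both channels of a clone, read it as well above background. In SKOV3 the dye-swapped arrays were averaged per clone and tested against 0 with lmFit and eBayes, with Benjamini-Hochberg adjustment over all probes and a call at 2-fold with an adjusted p no higher than 0.05; the spread of the single Ctrl RNA is left out. In A2780s a call needed 1.5-fold and the same sign on both arrays, and between Ctrl RNAs and between clones 2-fold with the same sign in both dyes, with no test. A gene not well above background in one RNA has a bound, set from the lowest signal called well above background and averaged over arrays. Named are the genes called in either line, those 2-fold apart between the Ctrl RNAs and called under an alternative, and those with a bound of at least 2-fold; of further lists, the called genes. Nothing states that clones were cultured in parallel. The p-values rest on the spread between these 2 clones, moderated by eBayes with the spread over all tested probes. They hold neither the spread between the dye-swapped arrays of a clone nor that of the shared Ctrl RNA. The number of arrays and the signal over background limit the precision. The rules for a call in SKOV3 and A2780s were tried on simulated ratios with planted changes well past the cut-offs and independent noise. The simulation held no shared Ctrl RNA, dye effect or dim channel, so it cannot show how the rules behave under these. Alternatives changed the background correction, normalization, filter, probe, dye and arrays. RefSeq promoters were of GRCh38.p14 and probe positions of hg19.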

Additional observations from a re-analysis of the deposited data

Results flagged for a closer look

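SLIT2, the gene of a secreted Slit ligand, drew attention because the labelled sh clones of SKOV3 moved opposite ways on every array. Its log2 ratio was below 0 on both sh-S1 arrays and above 0 on both sh-S2 arrays, and sh-S2 minus sh-S1 was 1.46. The difference was not tested, since each clone is 1 RNA.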

How the results depend on the processing

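The 7 genes called in SKOV3 were called under all 14 alternatives, except EFNA1. It was called under 13 and at -0.96 missed 2-fold as the mean over its probes. Some of these alternatives could change little. Leaving out a clone left 2-fold as the only rule, and dropping the filter left the ratios as they were. For SEMA3C, NTN4, UNC5B and EFNB2 the mean over probes was the ratio of the 1 tested probe. The size of the ratios of the 7 genes moved with the processing. With the Feature Extraction processed signals NTN4 read -4.82, UNC5B 4.13, SEMA3D 3.67 and ROBO1 3.19. In the same setting SEMA3C read -2.72, EFNB2 -2.34 and EFNA1 -1.15. As the mean over probes SEMA3D read 1.32 and ROBO1 1.26. Genes called higher in SKOV3 numbered 3, and 5 with the clone in Cy3 only. Genes called lower numbered 4, 9 with the Feature Extraction processed signals and 7 with a normexp offset of 10. There EFNA5 read -2.80 and -1.35 and EPHB2 -1.52 and -1.11. Of all genes tested in SKOV3, 7.96% were called in the main analysis. That share was 11.4% with the clone in Cy3 only, 17.2% with the processed signals and 12% with the offset of 10. Leaving out 1 array or 1 clone gave 3 to 5 higher and 4 to 5 lower, where 7.82% to 9.12% of all genes were called. The 5 came without clone sh-S1, when SLIT2 at 1.23 and SEMA6A at 1.73 passed 2-fold with no test. In A2780s the 3 genes called lower became 0 as the mean over probes, and leaving out an array gave 1 to 2 higher and 1 to 4 lower. Without replicate 1 there was 1 lower. Without replicate 2 there were 2 higher, EPHB3 with EPHA2 at 0.69, and UNC5B at -0.67 was also lower. Of all genes, 4.86% were called in A2780s, 4.19% without replicate 1 and 11% without replicate 2. Genes 2-fold higher and lower in A2780s Ctrl ranged over 6 to 9 and 6 to 10. The share of all genes that differed between the Ctrl RNAs was not counted under these alternatives, so these ranges are not read as a result about the set. No named gene changed sign past its threshold. Counting a gene as called by any probe, chosen after the data were seen, added EPHA4 to the 4 lower in SKOV3. The cause of these shifts was not tested. Each ratio pairs a clone with its Ctrl on 1 array. No further paired analysis was possible because the labels carry no replicate numbers. Replicates 1 and 2 here name the arrays with the clone in Cy5 and Cy3, of the same RNAs. A slide block was not run because the SKOV3 arrays lie on 1 slide. The dim Cy5 channel of SKOV3 limits low genes, and 14 of the 42 genes have no test there.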
